A study of Arabidopsis thaliana with 8 samples.

Results

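The 10 genes described here build, copy, remove or report DNA methylation in *Arabidopsis*, and were chosen by gene identifier from the 37361 genes counted in the series. They are *NRPD1* (AT1G63020), *NRPE1* (AT2G40030), *DRM2* (AT5G14620), *MET1* (AT5G49160), *CMT3* (AT1G69770), *CMT2* (AT4G19020), *DDM1* (AT5G66750), *ROS1* (AT2G36490), *IBM1* (AT3G07610) and *SDC* (AT2G17690). All 10 were found in the count tables. RNA-seq was performed on Col-0 seedlings of 4 genotypes with 2 libraries each, namely *fry1-6 rdr6-11*, *fry1-6 rdr1-1*, *fry1-6* and WT. *fry1-6* is a T-DNA insertion line in *FRY1*, which encodes a phosphatase of sulfur metabolism whose loss raises an inhibitor of 5′-3′ exoribonucleases, and every mutant library carries it. *rdr6-11* and *rdr1-1* are alleles of *RDR6* and *RDR1*, which encode RNA-dependent RNA polymerases that copy RNA into the double-stranded precursors of siRNAs, and neither allele was sequenced without *fry1-6*. The labels give an age of 12 days and growth at 23 °C with 16 h of light for all 8 libraries, while their stage tag gives a different age and the study's methods a shorter day and a lower temperature. The libraries titled as *fry1-6 rdr1-1* carry the genotype tag of the other double mutant, and the title was followed.

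Cytosines in plants are methylated in CG, CHG and CHH contexts, where H stands for A, C or T. In RNA-directed DNA methylation (RdDM), RNA polymerase IV makes the precursors of 24-nt siRNAs, RNA polymerase V makes the scaffold transcripts those siRNAs find, and the methyltransferase DRM2 is brought to the site. MET1 copies CG methylation after replication, the chromomethylases CMT3 and CMT2 keep up CHG and CHH methylation in chromatin marked by histone H3 lysine 9 methylation, and the DNA glycosylase ROS1 takes methylated cytosines out.

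Genotypes are named by their labels throughout, because no mutated gene had a transcript that was lower in its own mutants than in all other libraries. *FRY1* was at 80.6 and 151 CPM in *fry1-6 rdr6-11*, 55.0 and 119 CPM in *fry1-6 rdr1-1*, 101 and 93.6 CPM in *fry1-6*, and 49.1 and 27.5 CPM in WT. Every mutant library lay above both WT libraries. No difference of *FRY1* from WT was called by edgeR, and DESeq2 called it higher in *fry1-6 rdr6-11* (log2 difference 1.55, adjusted p = 0.00938). *RDR6* was at 12.1 and 20.7 CPM in *fry1-6 rdr6-11*, inside the span of 11.0 to 21.5 CPM in the 4 libraries of the other mutants and against 39.5 and 20.2 CPM in WT, and *RDR1* was at 28.8 and 19.5 CPM in *fry1-6 rdr1-1*, against 19.7 and 9.38 CPM in WT. Counts per gene hold no position, so reads of a disrupted allele are counted too. CPM values are counts scaled to library size, with TMM normalization. The libraries held 15069329 to 26285519 counts on genes, and 3 counts were worth 0.121 to 0.215 CPM. Chloroplast genes took 2.29% to 2.80% of counts in the double mutants, against 0.0342% to 0.173% in *fry1-6* and WT, and a difference in how these libraries were made and the second mutation cannot be told apart. The 3 shoot markers summed to 15970 to 30590 CPM and the 3 flower markers to at most 1.84 CPM. Among the shoot markers *LHCB1.1*, a chlorophyll-binding protein gene with near-identical copies and so uncertain in its counts, moved with genotype, at 1356 and 894 CPM in *fry1-6 rdr6-11*, 11330 and 8072 CPM in *fry1-6 rdr1-1*, 6836 and 4686 CPM in *fry1-6*, and 3008 and 1690 CPM in WT. It was named after its values were seen. With edgeR it was called higher in *fry1-6 rdr1-1* than in WT (adjusted p = 0.0301) and lower in *fry1-6 rdr6-11* than in *fry1-6* (0.0327) and *fry1-6 rdr1-1* (0.0312), calls lost in 5, 6 and 6 of 8 fits with 1 library left out. The 3 root-hair markers summed to 2.42 and 1.47 CPM in *fry1-6 rdr6-11*, 3.24 and 3.96 CPM in *fry1-6 rdr1-1*, 4.14 and 0.065 CPM in *fry1-6*, and 5.22 and 0.307 CPM in WT, with 2 of the 3 markers at 0 in *fry1-6* replicate 2 and 1 in WT replicate 2. The shoot markers *RBCS1A* and *CA1* moved otherwise than *LHCB1.1*. In *fry1-6 rdr6-11*, *fry1-6 rdr1-1*, *fry1-6* and WT, *RBCS1A* had means of 14290, 15350, 10570 and 12570 CPM. *CA1* had means of 3292, 3086, 3184 and 4441 CPM in the same order. Neither was called by edgeR or DESeq2 in any comparison, and *CA1* had an unadjusted p under 0.05 in *fry1-6 rdr1-1* against WT. The part of either marker set in the results was not tested. No label says that the libraries of a genotype came from separate cultures, so p-values measure the spread between these libraries, which may be technical.

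*SDC* is the reporter of the set. It encodes an F-box protein and is known to be kept silent in vegetative tissue by methylation of tandem repeats ahead of its start, laid down by DRM2 and CMT3 in a redundant way. It lies on chromosome 2 at chr2:7682162-7684083 of TAIR10.1, forward strand. The 300 bases just ahead of its annotated start, chr2:7681862-7682161 of the RefSeq genome, are shown because they hold these repeats, and capitals mark each copy of AAGATAAGAT, a word read from the repeats themselves.
SDC upstream window: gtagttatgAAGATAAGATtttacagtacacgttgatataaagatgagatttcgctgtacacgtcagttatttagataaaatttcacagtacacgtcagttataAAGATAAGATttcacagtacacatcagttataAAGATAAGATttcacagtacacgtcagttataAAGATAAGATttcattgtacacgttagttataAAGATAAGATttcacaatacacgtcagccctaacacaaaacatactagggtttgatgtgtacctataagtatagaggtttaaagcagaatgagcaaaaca

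The word begins at 5 places, 291, 196, 164, 132 and 100 bases ahead of the start. It occurred on either strand in 107 of 27438 windows of the same length ahead of protein-coding genes (0.39%), and only 1 window, that of *SDC*, held 5 copies. The word was picked as the most copied of its length in the *SDC* window, so these counts cannot show that this window is unusual. Set against itself, the *SDC* window agreed best at a shift of 32 bases, with 62.3% identity, a value that 6 of the 27438 windows reached, its own included (0.022%). The windows of the other 9 genes reached 31.8% to 37.9% at their own best shifts of 17 to 59 bases. The window was cut in a fixed frame of 32 bases, and stretches with at most 8 differences from the majority were kept. This gave 6 units in a row, in which capitals mark bases that differ from the majority base of the 6.
SDC repeat unit 1: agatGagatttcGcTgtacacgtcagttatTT
SDC repeat unit 2: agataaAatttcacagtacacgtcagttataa
SDC repeat unit 3: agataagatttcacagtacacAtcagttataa
SDC repeat unit 4: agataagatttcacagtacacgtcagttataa
SDC repeat unit 5: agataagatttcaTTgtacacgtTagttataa
SDC repeat unit 6: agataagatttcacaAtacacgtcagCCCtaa
Unit 1 began at position 7681903 and unit 6 ended at position 7682094 of chromosome 2. Unit 4 matched the majority at every base, units 2 and 3 differed at 1 base each, and units 1 and 6 differed at 5 and 4 bases. Unit 1 begins 259 bases ahead of the start, so the copy of the word at 291 bases lies ahead of it. The stretch with that copy resembles the units but was left out by the fixed frame, so the 6 are not all the repeats of the window. On both strands together the *SDC* window held 14 CG, 22 CHG and 56 CHH cytosines. CHG counts in the windows of the other 9 genes ran from 2 for *CMT3* to 20 for *CMT2*. Methylation itself was not measured in these libraries.

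*SDC* was low in WT and higher in each of the 6 mutant libraries. It had 43 and 61 counts in *fry1-6 rdr6-11* (1.83 and 2.80 CPM), 22 and 59 counts in *fry1-6 rdr1-1* (1.02 and 2.38 CPM), 42 and 31 counts in *fry1-6* (2.81 and 2.01 CPM), and 7 and 3 counts in WT (0.501 and 0.184 CPM). No mutant library overlapped WT, and the lowest of them stood at 1.02 CPM against 0.501 CPM in the higher WT library. Summed over libraries, the ratio to WT was 6.96 for *fry1-6 rdr6-11* (95% exact interval 3.63 to 14.9), 5.29 for *fry1-6 rdr1-1* (2.74 to 11.5) and 7.28 for *fry1-6* (3.74 to 15.8). These intervals cover counting error only, and the reads carry no molecular identifiers. *SDC* passed the filter on low counts only through the mutant libraries, where it was high, since WT held 10 counts in all, so its test and its place among the called members are not independent of that filter. Tested with edgeR (quasi-likelihood, p adjusted by Benjamini-Hochberg over 22744 genes), *SDC* rose in *fry1-6 rdr6-11* against WT by 2.76 on the log2 scale (SE 0.65, adjusted p = 0.0302). The difference was of like size but did not pass 0.05 in *fry1-6* (2.82, SE 0.66, adjusted p = 0.0608) or in *fry1-6 rdr1-1* (2.33, SE 0.65, adjusted p = 0.0790). DESeq2 gave *SDC* adjusted p-values of 0.00303, 0.00522 and 0.0265 in *fry1-6 rdr6-11*, *fry1-6* and *fry1-6 rdr1-1*. The rise in *fry1-6 rdr6-11* lost its call without WT replicate 2 or without either *fry1-6 rdr6-11* library, with adjusted p-values up to 0.150.

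The *SDC* level did not separate the mutants from each other. Against *fry1-6* the log2 difference was -0.06 in *fry1-6 rdr6-11* (95% interval -1.33 to 1.21, adjusted p = 0.956) and -0.49 in *fry1-6 rdr1-1* (-1.78 to 0.79, adjusted p = 0.696), and between the double mutants it was 0.44 for *fry1-6 rdr6-11* over *fry1-6 rdr1-1* (-0.83 to 1.70, adjusted p = 0.728). The first of these intervals leaves room for a change of more than 2-fold either way. *SDC* is also the only member that overlaps another gene. AT2G17695, on the reverse strand, shares 1303 of the 1625 exonic bases of *SDC*, and neither the strand setting of the counting nor its treatment of overlaps is given in the sources used here. AT2G17695 was at 27.2 and 26.4 CPM in *fry1-6 rdr6-11*, 25.3 and 30.2 CPM in *fry1-6 rdr1-1*, 36.2 and 39.6 CPM in *fry1-6*, and 48.2 and 47.8 CPM in WT. It fell against WT in both double mutants, by 0.84 on the log2 scale with *rdr6-11* (edgeR adjusted p = 0.0119) and by 0.79 with *rdr1-1* (edgeR adjusted p = 0.0246), so that in *fry1-6 rdr6-11* the neighbour and *SDC* moved in opposite directions. Under total-count scaling the first of these did not pass, at an adjusted p of 0.0539. It was also lost without either *fry1-6 rdr6-11* library, and the fall in *fry1-6 rdr1-1* without WT replicate 2 or any 1 of the 4 double-mutant libraries, at adjusted p-values up to 0.103 and 0.158.

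**Figure D1:**
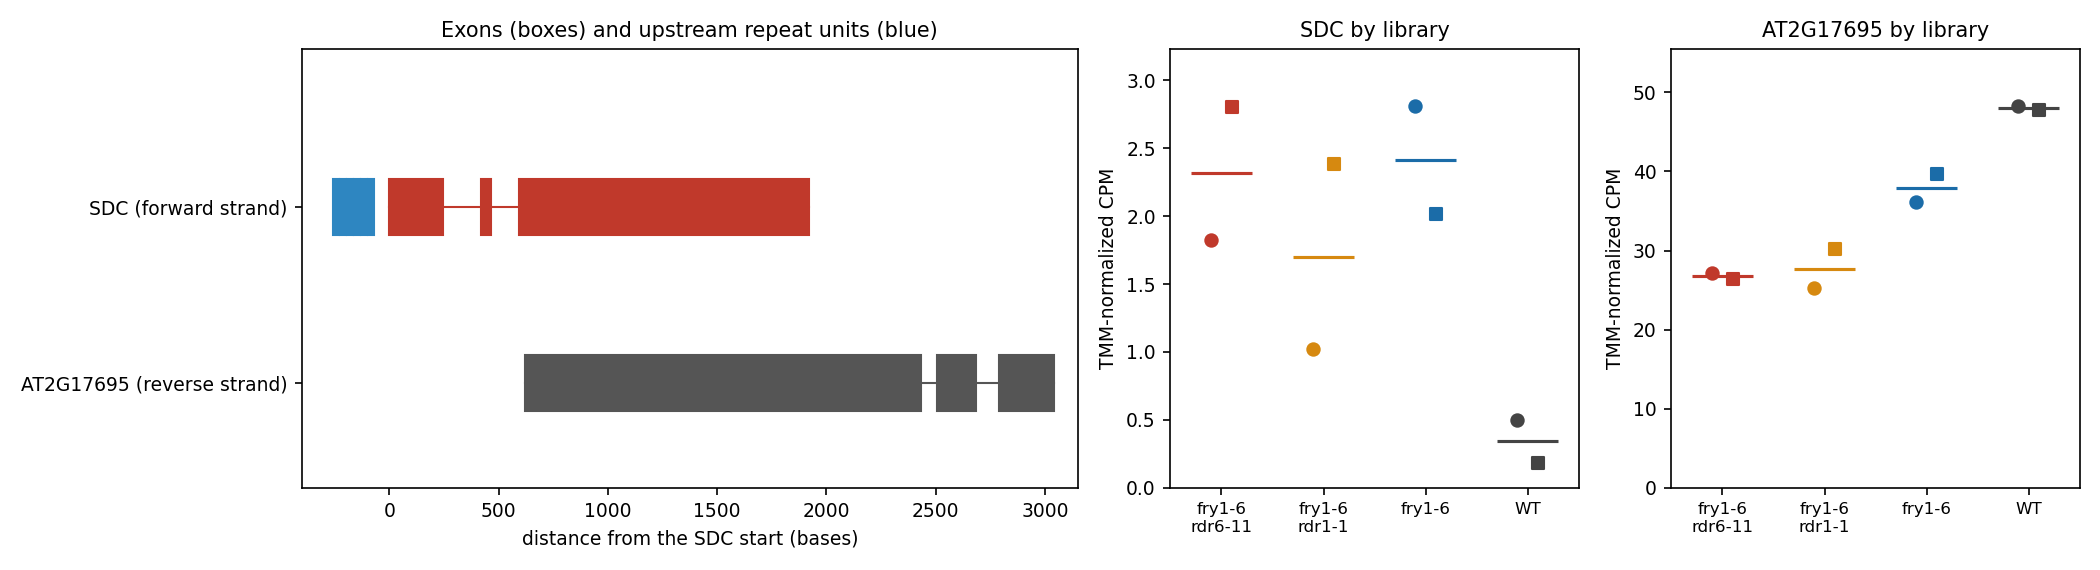
Left, exons of *SDC* and of AT2G17695 as boxes joined by introns, with the 6 listed upstream repeat units in blue, by distance from the *SDC* start in bases. Middle and right, TMM-normalized CPM of *SDC* and AT2G17695 in each library (circle, replicate 1; square, replicate 2; bar, mean of 2 libraries). *SDC* lies at 1.02 to 2.81 CPM in the 6 mutant libraries, above 0.501 and 0.184 CPM in WT, while AT2G17695 lies at 25.3 to 39.6 CPM in the mutants, under 48.2 and 47.8 CPM in WT.

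With edgeR, members were called against WT in *fry1-6 rdr6-11* and in neither of the other mutants. There, 5 of the 10 were called at an adjusted p under 0.05, where 18.9% of all tested genes were called. *DRM2* and *SDC* rose, when 10.9% of tested genes rose, and *CMT2*, *ROS1* and *IBM1* fell, when 7.94% of tested genes fell. Leaving out *SDC*, 4 of 9 were called. At an unadjusted p under 0.05, 7 members passed, *MET1* and *NRPE1* being the others, with 35.3% of all tested genes. DESeq2 called the same 7 members, with 21.7% of the genes it tested. The members' median log2 fold change was -0.68, against 0.04 over all tested genes, and 8 of the 10 values were negative, as were 10837 of the 22744 tested genes. The median was -0.70 over the 9 without *SDC*. *NRPD1*, 1 of the 8, was positive under total-count scaling (0.13), which moved all genes, and stood at -0.28 once the all-gene median under that scaling was taken off. In *fry1-6* against WT, 0 members were called with edgeR (5.42% of tested genes), 4 (*MET1*, *CMT3*, *ROS1* and *SDC*) had an unadjusted p under 0.05 (18.9%), and DESeq2 called *ROS1* and *SDC* (7.95%). In *fry1-6 rdr1-1* against WT, 0 members were called with edgeR (7.97%), *DRM2* and *SDC* had an unadjusted p under 0.05 (26.5%), and DESeq2 called *SDC* (12.7%). The median log2 fold changes were -0.22 in *fry1-6* and -0.19 in *fry1-6 rdr1-1*, against -0.03 and 0.05 over all tested genes. The 3 comparisons share the WT libraries.

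**Figure D2:**
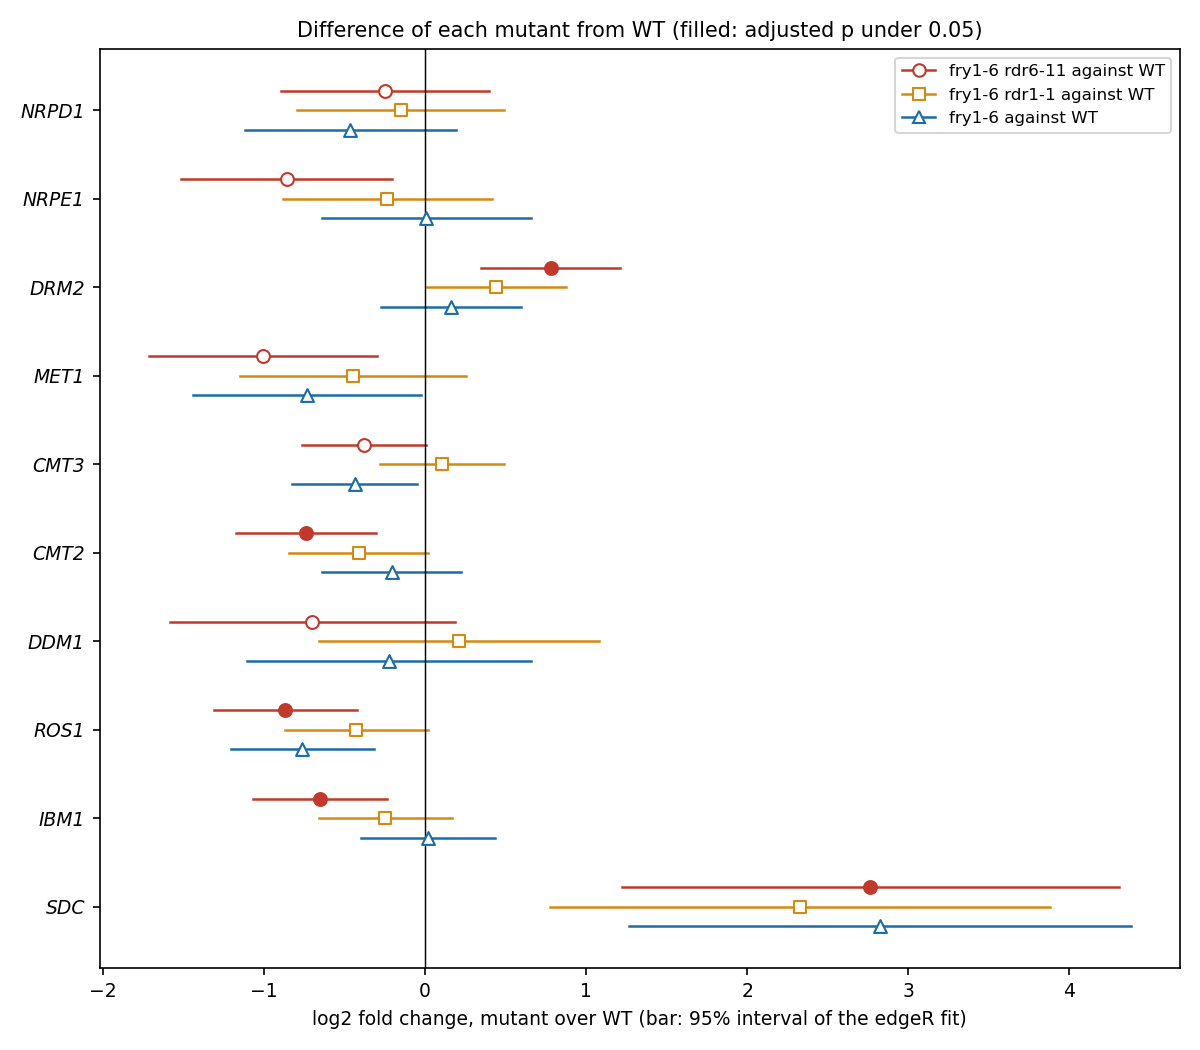
Log2 fold change of each member in each mutant over WT, from edgeR's fit of all 8 libraries, with 95% intervals; filled markers have an adjusted p under 0.05. The 5 filled markers are all of *fry1-6 rdr6-11*: *DRM2* at 0.78 and *SDC* at 2.76 to the right of 0, and *CMT2* at -0.74, *ROS1* at -0.87 and *IBM1* at -0.65 to the left.

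In the edgeR fit of all 8 libraries without replicate blocks, the genes of the largest subunits of RNA polymerases IV and V did not pass in any comparison. *NRPD1*, the largest subunit of polymerase IV, lies at chr1:23354685-23362589 on the reverse strand. It was at 5.48 and 5.56 CPM in *fry1-6 rdr6-11*, 5.79 and 6.02 CPM in *fry1-6 rdr1-1*, 5.55 and 3.96 CPM in *fry1-6*, and 7.87 and 5.27 CPM in WT. Each mutant overlapped WT. *NRPE1*, the largest subunit of polymerase V (chr2:16714460-16723718), was at 9.65 and 13.0 CPM in *fry1-6 rdr6-11*, 17.5 and 17.3 CPM in *fry1-6 rdr1-1*, 24.0 and 17.2 CPM in *fry1-6*, and 24.8 and 16.3 CPM in WT. The *fry1-6 rdr6-11* libraries were below all others. The log2 difference of *fry1-6 rdr6-11* was -0.86 from WT (SE 0.28, adjusted p = 0.0727) and -0.87 from *fry1-6* (SE 0.28, adjusted p = 0.116). DESeq2 called the first of these, at an adjusted p of 0.0328, and edgeR called it without WT replicate 2 (-1.14, adjusted p = 0.0377).

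*DRM2*, the methyltransferase of RdDM (chr5:4715105-4718704, reverse strand), moved the other way. It was at 19.3 and 22.8 CPM in *fry1-6 rdr6-11*, 18.7 and 14.7 CPM in *fry1-6 rdr1-1*, 13.6 and 13.8 CPM in *fry1-6*, and 12.7 and 11.8 CPM in WT. Both WT libraries lay below all 6 mutant libraries, and both *fry1-6 rdr6-11* libraries above all 6 others. *DRM2* rose in *fry1-6 rdr6-11* over WT by 0.78 on the log2 scale (SE 0.18, adjusted p = 0.0296), a 1.72-fold difference. Its difference was 0.44 in *fry1-6 rdr1-1* over WT (SE 0.18, adjusted p = 0.181) and 0.62 in *fry1-6 rdr6-11* over *fry1-6* (SE 0.18, adjusted p = 0.0986). The rise over WT lost its call in 6 of the 8 fits that left out 1 library, which were those without either library of WT, *fry1-6* or *fry1-6 rdr6-11*, with log2 differences of 0.64 to 0.89 and adjusted p-values of 0.0401 to 0.178 over the 8 fits.

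Of the genes that keep methylation through cell division, edgeR called *CMT2* lower in *fry1-6 rdr6-11* than in WT and did not call *MET1*, *CMT3* or *DDM1*, while DESeq2 called *MET1* too. *CMT2*, the chromomethylase of CHH sites (chr4:10414428-10421265), was at 18.9 and 24.7 CPM in *fry1-6 rdr6-11*, 25.7 and 29.0 CPM in *fry1-6 rdr1-1*, 33.2 and 29.9 CPM in *fry1-6*, and 39.2 and 33.6 CPM in WT. Neither the *fry1-6 rdr6-11* nor the *fry1-6 rdr1-1* libraries overlapped those of *fry1-6* or WT. It fell by 0.74 on the log2 scale in *fry1-6 rdr6-11* against WT (SE 0.18, adjusted p = 0.0352), and its difference from *fry1-6* was -0.53 (SE 0.18, adjusted p = 0.136). The call was lost in 7 of 8 fits with 1 library left out, all but that without WT replicate 2, with adjusted p-values of 0.0416 to 0.165.

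*MET1*, the CG methyltransferase (chr5:19932114-19938470), spread widely between the WT libraries. It was at 22.6 and 18.3 CPM in *fry1-6 rdr6-11*, 27.2 and 33.0 CPM in *fry1-6 rdr1-1*, 27.7 and 21.6 CPM in *fry1-6*, and 52.6 and 29.5 CPM in WT. Its log2 difference from WT was -1.01 in *fry1-6 rdr6-11* (SE 0.30, adjusted p = 0.0584) and -0.73 in *fry1-6* (SE 0.30, adjusted p = 0.248), and DESeq2 called the first of these, at an adjusted p of 0.0140. The same difference for *fry1-6 rdr6-11* was -0.54 without WT replicate 1 (adjusted p = 0.167) and -1.37 without WT replicate 2 (adjusted p = 0.0176), so that among the 8 fits with 1 library left out it passed only without WT replicate 2, the lower one. *CMT3*, the CHG methyltransferase (chr1:26248118-26253687, reverse strand), was at 14.5 and 12.2 CPM in *fry1-6 rdr6-11*, 17.4 and 19.8 CPM in *fry1-6 rdr1-1*, 12.8 and 12.8 CPM in *fry1-6*, and 18.0 and 16.7 CPM in WT. The libraries of *fry1-6 rdr6-11* and of *fry1-6* lay below those of *fry1-6 rdr1-1* and of WT, with no overlap. Its log2 difference was -0.44 in *fry1-6* from WT (SE 0.16, adjusted p = 0.214), 0.54 in *fry1-6 rdr1-1* from *fry1-6* (SE 0.16, adjusted p = 0.214) and -0.48 in *fry1-6 rdr6-11* from *fry1-6 rdr1-1* (SE 0.16, adjusted p = 0.220). *DDM1*, a chromatin remodeler that opens heterochromatin to the methyltransferases (chr5:26648897-26653191), was at 5.86 and 4.97 CPM in *fry1-6 rdr6-11*, 11.7 and 8.73 CPM in *fry1-6 rdr1-1*, 8.55 and 6.50 CPM in *fry1-6*, and 12.0 and 5.70 CPM in WT. WT alone spanned nearly the whole range of the other genotypes, and the difference of *fry1-6 rdr6-11* from *fry1-6 rdr1-1* was -0.91 (SE 0.37, adjusted p = 0.290).

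*MET1*, *CMT3* and *DDM1* are known to be most active in dividing cells, so 12 genes of DNA replication and mitosis were read beside them. Their summed level was 138 and 133 CPM in *fry1-6 rdr6-11*, 192 and 225 CPM in *fry1-6 rdr1-1*, 164 and 133 CPM in *fry1-6*, and 251 and 154 CPM in WT, with none of the 12 at 0 in any library. The sum was highest in WT replicate 1 among the WT and *fry1-6* libraries. It was lower in both *fry1-6 rdr6-11* libraries than in both *fry1-6 rdr1-1* libraries. *MET1*, *CMT3* and *DDM1* had the same order, and so did *NRPD1*, *NRPE1*, *CMT2* and *ROS1*. The order was therefore not particular to the members read beside the sum. Of the 12 genes, 12 had a lower fitted value in *fry1-6 rdr6-11* than in *fry1-6 rdr1-1*, as did 10990 of 22744 tested genes. In that comparison edgeR called 0 of the 12 (1.1% of tested genes called). At an unadjusted p under 0.05 there were 6 (16.3%), and DESeq2 called 2 (5.74%). Against WT, edgeR called 1 of the 12 lower in *fry1-6 rdr6-11* (18.9% of tested genes called), 1 higher in *fry1-6 rdr1-1* (7.97%) and 0 in *fry1-6* (5.42%). In the same order, 5, 2 and 2 of them had an unadjusted p under 0.05 (35.3%, 26.5% and 18.9%). DESeq2 called 2, 1 and 1 (21.7%, 12.7% and 7.95%). Fewer dividing cells and less RNA per cell cannot be told apart in whole seedlings, and the part of the dividing cells in the members' values was not tested.

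*ROS1* and *IBM1*, which act against silencing, both fell in *fry1-6 rdr6-11*. *ROS1*, the demethylase (chr2:15307907-15314807, reverse strand), is known to depend on methylation of its own promoter for its transcription. It was at 50.7 and 48.9 CPM in *fry1-6 rdr6-11*, 67.1 and 68.3 CPM in *fry1-6 rdr1-1*, 60.7 and 46.6 CPM in *fry1-6*, and 102 and 80.3 CPM in WT. All 6 mutant libraries lay below both WT libraries. *ROS1* fell by 0.87 on the log2 scale in *fry1-6 rdr6-11* (SE 0.19, adjusted p = 0.0235). Its difference in *fry1-6* was -0.76 (SE 0.19, adjusted p = 0.0730; 0.0136 with DESeq2). The call in *fry1-6 rdr6-11* was lost without WT replicate 1 or without either *fry1-6 rdr6-11* library, with adjusted p-values up to 0.129. *IBM1*, a histone H3 lysine 9 demethylase that keeps CHG methylation out of genes (chr3:2425884-2433113), was at 20.8 and 20.3 CPM in *fry1-6 rdr6-11*, 28.9 and 25.6 CPM in *fry1-6 rdr1-1*, 34.0 and 31.5 CPM in *fry1-6*, and 27.8 and 36.9 CPM in WT. The *fry1-6 rdr6-11* libraries were below all others and *fry1-6* lay within the span of WT. *IBM1* fell by 0.65 in *fry1-6 rdr6-11* against WT (SE 0.175, adjusted p = 0.0445), and its difference from *fry1-6* was -0.67 (SE 0.175, adjusted p = 0.0782; 0.0415 with DESeq2). The fall against WT lost its call in 7 of the 8 fits with 1 library left out, all but that without WT replicate 1, with adjusted p-values of 0.0242 to 0.220.

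The calls of *ROS1*, *CMT2* and *IBM1* were lost when libraries were scaled by total counts alone, which moved the median of all tested genes in *fry1-6 rdr6-11* against WT to 0.41 on the log2 scale and called 5813 genes higher of 6781, against 2484 of 4291 with TMM. Relative to that median they were at -0.90, -0.77 and -0.70, and *DRM2* and *SDC* at 0.75 and 2.74. No member was called when only the libraries of *fry1-6 rdr6-11* and WT entered the fit, where 1828 genes were called.

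**Figure D3:**
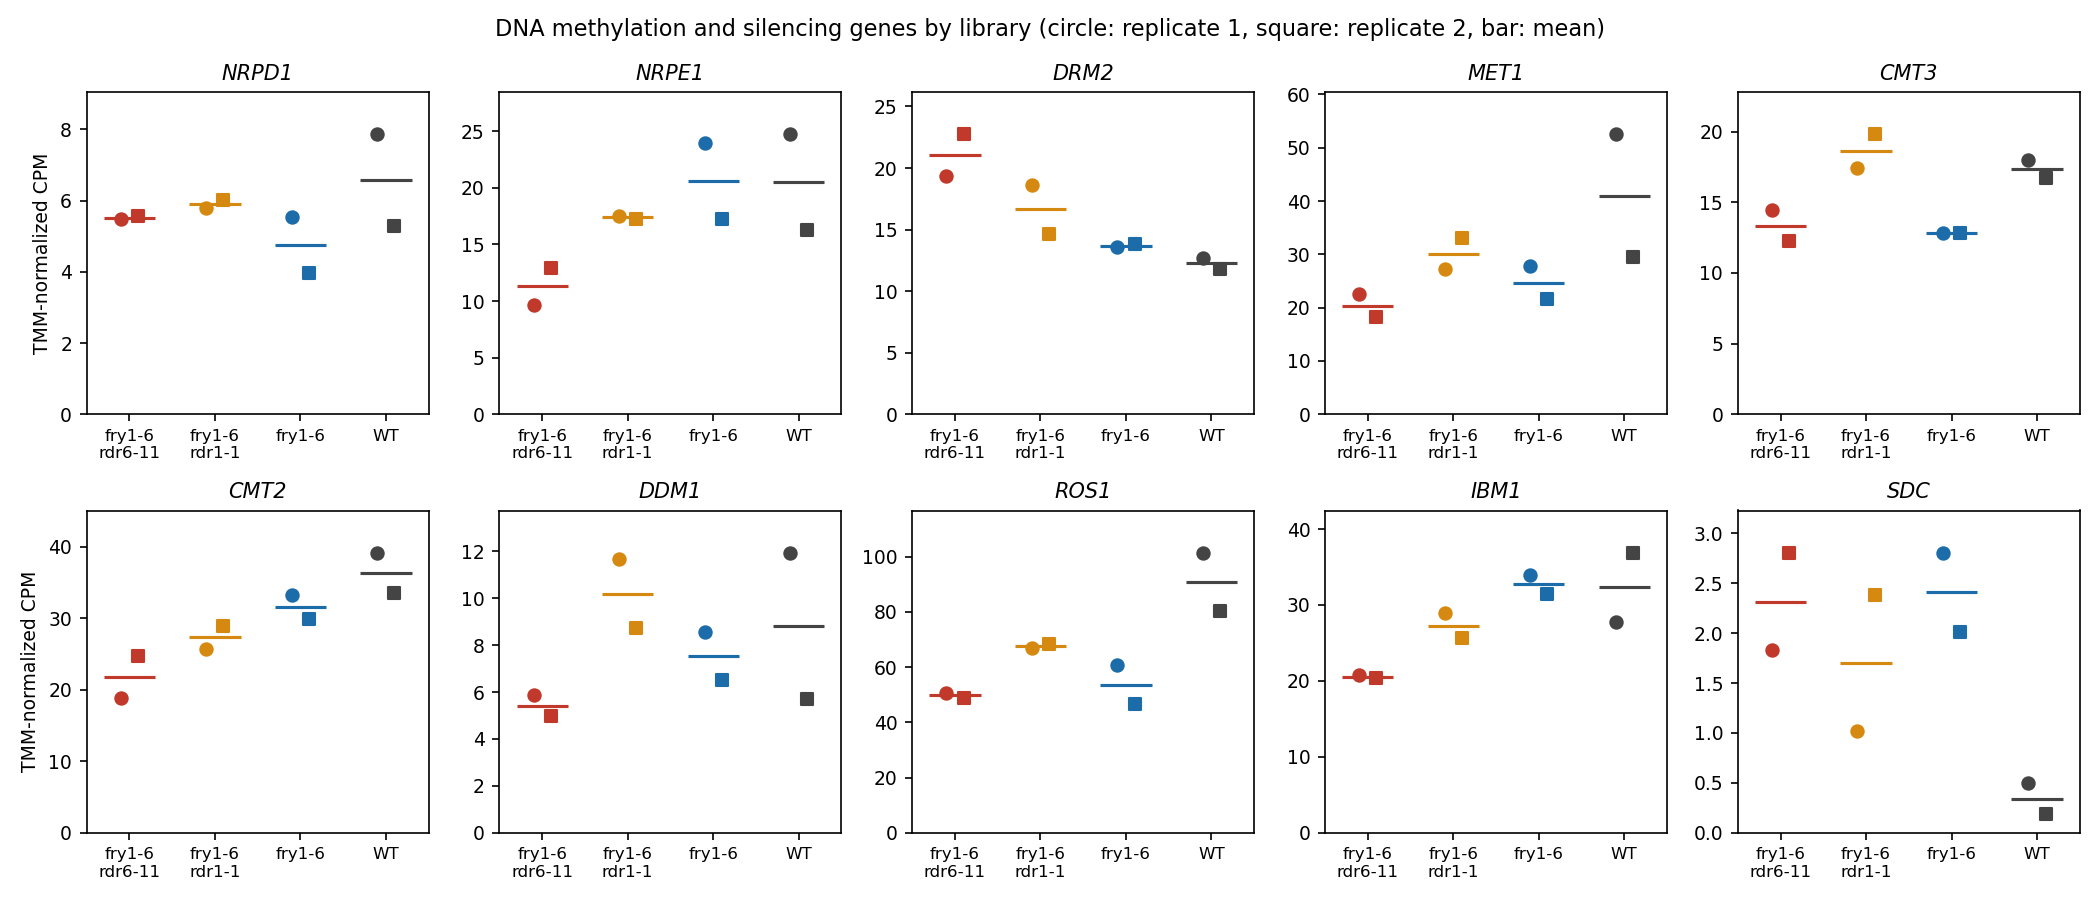
TMM-normalized CPM of the 10 members in every library (circle, replicate 1; square, replicate 2; bar, mean of 2 libraries), on axes that start at 0. *DRM2* and *SDC* are lowest in WT, *CMT2* and *ROS1* are lower in all 6 mutant libraries than in WT, and *NRPE1* and *IBM1* are lowest in *fry1-6 rdr6-11*.

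Between the mutants edgeR called no member and DESeq2 called 1. In *fry1-6 rdr6-11* against *fry1-6*, 0 members were called with edgeR (4.76% of tested genes), 4 had an unadjusted p under 0.05 (25.2%), namely *NRPE1*, *DRM2*, *CMT2* and *IBM1*, and DESeq2 called *IBM1* (11.9%). In *fry1-6 rdr1-1* against *fry1-6*, 0 members were called with edgeR (0.264%) and 0 with DESeq2 (2.77%), and *CMT3* alone had an unadjusted p under 0.05 (15.7%). In *fry1-6 rdr6-11* against *fry1-6 rdr1-1*, 0 members were called with edgeR (1.1%) and 0 with DESeq2 (5.74%), and *CMT3*, *DDM1* and *ROS1* had an unadjusted p under 0.05 (16.3%). The difference of *ROS1* there was -0.44 (SE 0.19, adjusted p = 0.306). The members' median log2 fold changes in these 3 comparisons were -0.19, 0.29 and -0.42, against 0.02 over all tested genes in each. The edgeR fit of all 8 libraries therefore does not show that the changes called in *fry1-6 rdr6-11* against WT differ from those in the other mutants. *IBM1* is the member for which this depends on the fit, since its difference from *fry1-6* passed with DESeq2 and, with edgeR, without WT replicate 1 (adjusted p = 0.039) or WT replicate 2 (0.0387).

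Levels per gene length put the members in order. In WT, mean RPKM (CPM per kilobase of exon, ± SD, n = 2) was 18.8 ± 3.1 for *ROS1*, 8.44 ± 0.92 for *CMT2*, 8.11 ± 3.2 for *MET1*, 6.93 ± 1.4 for *IBM1*, 5.66 ± 0.28 for *CMT3*, 5.26 ± 0.29 for *DRM2*, 3.19 ± 1.6 for *DDM1*, 3.09 ± 0.90 for *NRPE1*, 1.22 ± 0.34 for *NRPD1* and 0.211 ± 0.14 for *SDC*. *ROS1*, *NRPD1* and *SDC* did not overlap their neighbours in this order. *CMT2*, *MET1* and *IBM1* overlapped, as did *CMT3* and *DRM2*, and *DDM1* and *NRPE1*, and the lower *MET1* library (5.83 RPKM) also lay below the higher *CMT3* library (5.86 RPKM). In *fry1-6 rdr6-11*, *ROS1* at 10.3 ± 0.26 RPKM was followed by *DRM2* at 9.03 ± 1.0 RPKM. *CMT2* was at 5.06 ± 0.95 RPKM and *MET1* at 4.03 ± 0.60 RPKM there. *SDC* was at 1.43 ± 0.43 RPKM in *fry1-6 rdr6-11*, above *NRPD1* at 1.03 ± 0.011 RPKM, but its level per length is uncertain because of the overlap with AT2G17695. The highest library of a member was 1.62-fold (*CMT3*) to 2.88-fold (*MET1*) above its lowest for the 9 genes of the machinery, and 15.3-fold for *SDC*. In WT and in *fry1-6*, replicate 1 was the higher for 9 of the 10 members, and in the double mutants for 5 members (*fry1-6 rdr6-11*) and 4 members (*fry1-6 rdr1-1*).

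The other genes of the pathway were counted by list, against the 18.9% (*fry1-6 rdr6-11*), 7.97% (*fry1-6 rdr1-1*) and 5.42% (*fry1-6*) of all tested genes that edgeR called against WT. In the same order, 35.3%, 26.5% and 18.9% of tested genes had an unadjusted p under 0.05. DESeq2 called 21.7%, 12.7% and 7.95% of the genes it tested. With 2 libraries per genotype, a gene that was not called is not shown to be unchanged. Of 11 genes of siRNA production for RdDM, which include the partner subunits of polymerase IV, RDR2, DCL3 and the CLASSY remodelers, all were tested and edgeR called none in any of the 6 comparisons. At most 2 of them had an unadjusted p under 0.05 in any comparison, and DESeq2 called *DCL3* in *fry1-6 rdr6-11* against WT. Their median log2 fold changes against WT were 0.26 in *fry1-6 rdr6-11*, 0.47 in *fry1-6 rdr1-1* and 0.07 in *fry1-6*. Of 17 effectors of RdDM, 16 were tested. There edgeR called 2 higher in *fry1-6 rdr6-11*, 2 in *fry1-6 rdr1-1* and 1 in *fry1-6*, and 0 lower, with medians of 0.04, 0.24 and 0.11. In the same order, 4, 3 and 3 effectors had an unadjusted p under 0.05, and DESeq2 called 3, 2 and 1. Among these, DESeq2 called *DRM3* lower in *fry1-6 rdr6-11* (log2 difference -0.50, adjusted p = 0.0456). Of 9 genes of methylation and heterochromatin upkeep, 8 were tested and edgeR called none, with medians of -0.39, 0.20 and 0.01 in the same order. In that list 3, 2 and 2 genes had an unadjusted p under 0.05, and DESeq2 called *SUVH6* in *fry1-6 rdr6-11*. Of 9 genes of demethylation and anti-silencing, edgeR called 1 lower in *fry1-6 rdr6-11*, with medians of -0.26, -0.24 and -0.23. In *fry1-6 rdr6-11*, 3 of them had an unadjusted p under 0.05 and DESeq2 called *DME*. In the other mutants edgeR called 0 of them, with 1 gene (*DME*) at an unadjusted p under 0.05 in *fry1-6 rdr1-1* and 2 genes in *fry1-6*, and DESeq2 called *DME* in *fry1-6 rdr1-1*. Between mutants edgeR called no gene of these lists, at most 5 genes of a list had an unadjusted p under 0.05, and DESeq2 called *DRM3*, *MBD7* and *SUVH6* in *fry1-6 rdr6-11* against *fry1-6*, and *MBD7* in *fry1-6 rdr6-11* against *fry1-6 rdr1-1*. Over all tested genes, the shares at an unadjusted p under 0.05 were 25.2% and 16.3% in these comparisons, and 15.7% in *fry1-6 rdr1-1* against *fry1-6*. With DESeq2 they were 11.9%, 5.74% and 2.77% in that order.

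*FDM2* (AT4G00380), which encodes a partner of the RNA-binding protein IDN2 in RdDM, was the one gene of these lists that edgeR called higher in all 3 mutants. It is related in sequence to *IDN2* and *FDM1*, and reads that could have come from either copy were not told apart. It was at 18.6 and 18.5 CPM in *fry1-6 rdr6-11*, 16.1 and 22.7 CPM in *fry1-6 rdr1-1*, 16.6 and 15.1 CPM in *fry1-6*, and 5.87 and 6.87 CPM in WT. Its log2 differences from WT were 1.54 (SE 0.21, adjusted p = 0.0066), 1.61 (SE 0.21, adjusted p = 0.0097) and 1.31 (SE 0.21, adjusted p = 0.0169) in these mutants, in that order. With 1 library left out, the call was lost in 1 of 8 fits for *fry1-6 rdr6-11* (without its replicate 2), in 0 of 8 for *fry1-6 rdr1-1* and in 5 of 8 for *fry1-6*, namely those without WT replicate 1 or without any 1 of the *fry1-6* and *fry1-6 rdr6-11* libraries, at adjusted p-values up to 0.093. *DRD1* (AT2G16390), the remodeler that helps polymerase V on to chromatin, was called higher in *fry1-6 rdr6-11*, with 18.7 and 22.2 CPM against 10.4 and 11.4 CPM in WT (0.91, SE 0.19, adjusted p = 0.0224). *DRD1* also lay above both WT libraries in the other mutants without a call by edgeR. It was at 15.2 and 18.1 CPM in *fry1-6 rdr1-1* (0.61, SE 0.19, adjusted p = 0.103) and at 18.5 and 14.95 CPM in *fry1-6* (0.62, SE 0.19, adjusted p = 0.142). It shares 83 exonic bases with AT2G16400, and its call was lost without WT replicate 1 or either *fry1-6 rdr6-11* library, at adjusted p-values up to 0.153. *IDN2* (AT3G48670) rose in *fry1-6 rdr1-1*, with 30.9 and 36.8 CPM against 22.3 and 20.2 CPM in WT (0.67, SE 0.16, adjusted p = 0.0481), and lost its call in each of the 8 fits with 1 library left out, at adjusted p-values of 0.0688 to 0.189. *DME* (AT5G04560), the demethylase related to ROS1, fell in *fry1-6 rdr6-11*, with 59.6 and 68.2 CPM against 103 and 107 CPM in WT (-0.72, SE 0.14, adjusted p = 0.0175), and lost its call without either *fry1-6 rdr6-11* library, at adjusted p-values up to 0.118. Fits with 1 library left out also had 1 fewer residual degree of freedom, and its part in the lost calls was not tested. Of 9 other settings, 1 lost the call of *DRD1*, 5 that of *IDN2* and 2 that of *DME*. *IDN2* was at 31.4 and 27.9 CPM in *fry1-6 rdr6-11*, also above WT, and at 22.6 and 21.4 CPM in *fry1-6*, which overlapped WT. *DME* was at 71.45 and 71.62 CPM in *fry1-6 rdr1-1* and at 86.0 and 86.6 CPM in *fry1-6*, also below both WT libraries. A call in 1 mutant therefore does not make a change particular to it.

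**Figure D4:**
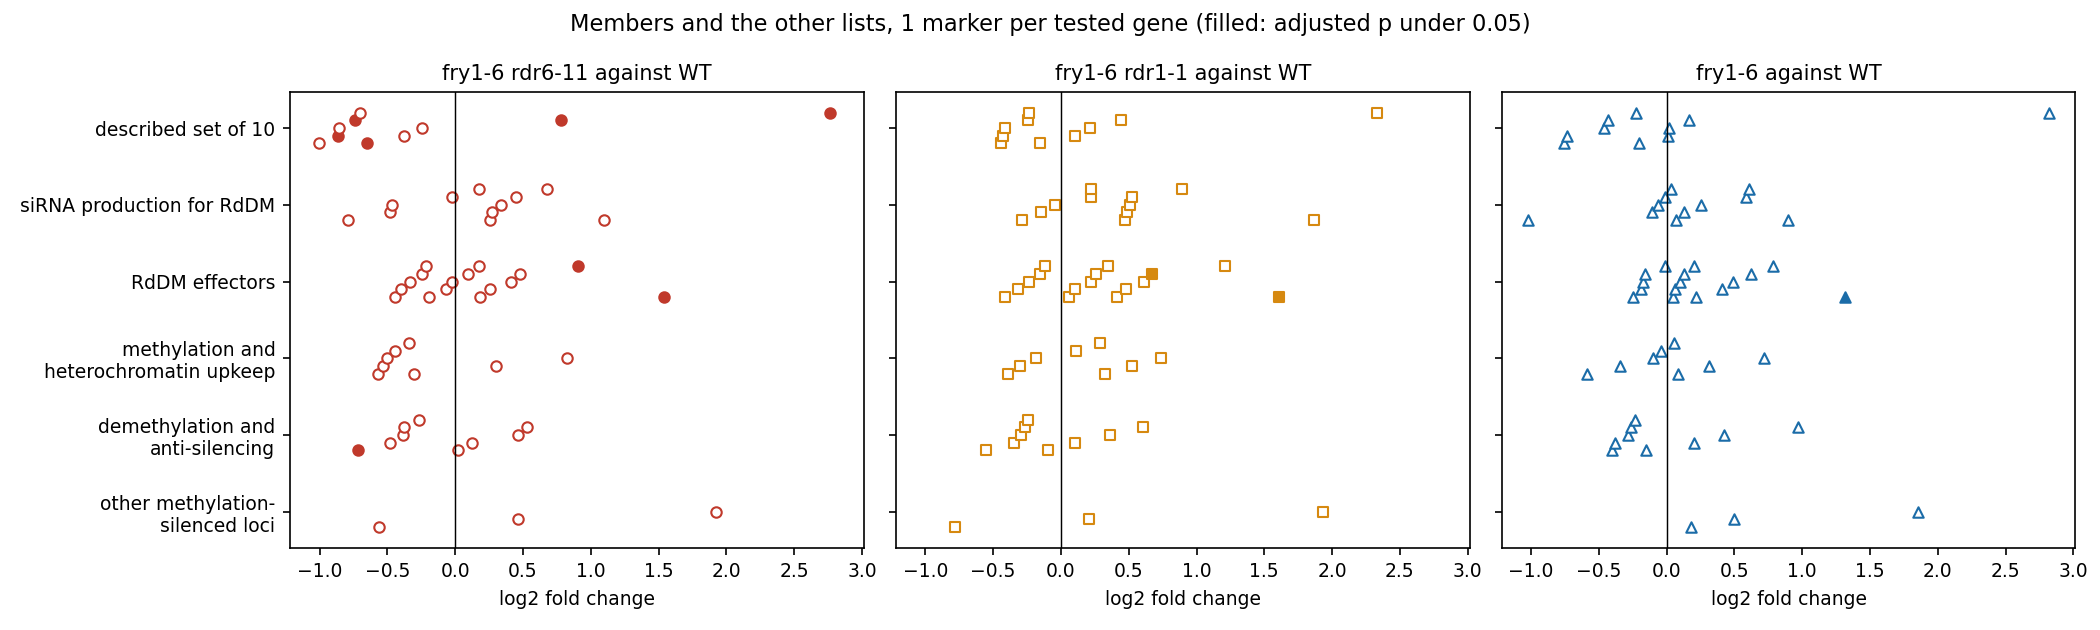
Log2 fold change over WT of each tested gene in the set of 10 and in the 5 other lists, 1 panel per mutant; filled markers have an adjusted p under 0.05. In *fry1-6 rdr6-11* 5 of the set of 10 are filled, while the other lists hold 3 filled markers there (*FDM2*, *DRD1* and *DME*), 2 in *fry1-6 rdr1-1* (*FDM2* and *IDN2*) and 1 in *fry1-6* (*FDM2*).

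None of the other loci known to be silenced by DNA methylation was called against WT, by edgeR, at an unadjusted p under 0.05 or by DESeq2. Of 5 such loci, 3 (*QQS*, *PHE1* and *MRD1*) were tested, and their median log2 fold changes over WT were 0.46 in *fry1-6 rdr6-11*, 0.21 in *fry1-6 rdr1-1* and 0.50 in *fry1-6*. The homeobox gene *FWA* and the retrotransposon copy AT5G17125 had at most 1 count in every library. The 3 tested loci were low and spread widely. *QQS* was at 2.08 and 1.24 CPM in *fry1-6 rdr6-11*, 0.509 and 2.26 CPM in *fry1-6 rdr1-1*, 1.27 and 2.14 CPM in *fry1-6*, and 0.930 and 1.47 CPM in WT, so that each mutant overlapped WT. *PHE1*, an imprinted MADS-box gene, was at 0.467 and 0.230 CPM in *fry1-6 rdr6-11*, 3.24 and 0.808 CPM in *fry1-6 rdr1-1*, 0.334 and 0.845 CPM in *fry1-6*, and 0.358 and 0.675 CPM in WT, so that only the *fry1-6 rdr1-1* libraries lay above WT. *MRD1* was at 0.467 and 1.33 CPM in *fry1-6 rdr6-11*, 0.232 and 0.0404 CPM in *fry1-6 rdr1-1*, 0.334 and 1.37 CPM in *fry1-6*, and 0.215 and 0.245 CPM in WT, so that both *fry1-6 rdr6-11* and both *fry1-6* libraries lay above WT. These rest on 1 to 70 counts per library, and the 3 genes were named after their values were seen. Of its 1250 exonic bases, *MRD1* shares 1039 with AT1G07887 and 922 with AT1G53490, both on the opposite strand. Its counts are therefore as uncertain as those of *SDC*. WT held 3 and 4 counts of *MRD1*, so like *SDC* it passed the filter on low counts only through mutant libraries where it was high. Its values and the list medians are not independent of that filter. Between mutants, *MRD1* had an unadjusted p under 0.05 in *fry1-6 rdr1-1* against *fry1-6* (15.7% of tested genes). *PHE1* and *MRD1* did between the double mutants (16.3%).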

How the data were processed

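Total RNA of whole seedlings was sequenced as mRNA libraries. The kit is TruSeq in the labels and another in the study's methods. The authors aligned reads with STAR 2.6 to the *Arabidopsis* genome with the Araport11 annotation, allowing up to 50 positions per read with 1 reported, and counted them with featureCounts 1.6.4. The strand and overlap settings are not given in the sources used here. The deposited values are whole counts per gene with the exonic gene length. That length matched the RefSeq TAIR10.1 annotation for 10 of 10 members, and 37065 of 37361 identifiers were found in it. Coordinates and sequences are from TAIR10.1.

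Counts of the 8 libraries entered 1 edgeR 4.0.16 quasi-likelihood fit (R 4.3.3, limma 3.58.1; filterByExpr with a minimum count of 10 and a minimum total of 15; TMM; 4 genotypes, 4 residual degrees of freedom), with 6 contrasts, two-sided tests and Benjamini-Hochberg adjustment over the 22744 tested genes. Calls have an adjusted p under 0.05. The common biological coefficient of variation was 27.0%. An exact test of 2 libraries against 2 could not go below p = 0.333, so none was used. Intervals are at 95%. RPKM was computed from the deposited lengths. Libraries of 1 genotype differed by more than counting noise (chi-square per gene 18.1 to 105.5). The code was tested on simulated data. Alternatives were DESeq2 1.42.0, its size factors, total-count scaling, other filters, only the genotypes compared, no organelle genes, replicate blocks and each library left out. The members and lists were chosen with earlier results of these data known. All members were named, with the up to 4 genes of each other list that had the smallest adjusted p among those called. *AT2G17695* was named for its overlap with *SDC*.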

Additional observations from a re-analysis of the deposited data

How the results depend on the processing

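In *fry1-6 rdr6-11* against WT, where 5 members were called, total-count scaling called 2 (*DRM2* and *SDC*), a filter of at least 10 counts in every library 3 (with *SDC* removed by it), only the genotypes compared 0, the replicate block 3 (*DRM2*, *ROS1* and *SDC*), and leaving out 1 library 0 to 5. The other settings called 4 (no filter) to 7 (DESeq2). The counts of members moved away from 0 in *fry1-6* against WT with DESeq2 (2), no filter (1, *SDC*) and separate replicate blocks, 1 shared by WT and *fry1-6* and 1 by the double mutants (2, *ROS1* at adjusted p = 0.013 and *SDC* at 0.0173), in *fry1-6 rdr1-1* against WT with DESeq2 (1, *SDC*) and separate blocks (2, *ROS1* and *SDC*), and in *fry1-6 rdr6-11* against *fry1-6* with total counts (1, *DRM2*), DESeq2 (1), separate blocks (3, *NRPE1*, *CMT2* and *IBM1*) and 1 library left out (0 to 1, *IBM1* without either WT library). The small *SDC* difference of *fry1-6 rdr6-11* from *fry1-6* turned to 0.20 under total counts and ran from -0.44 to 0.20 with 1 library left out, and that between the double mutants from -0.044 to 1.18. Of the log2 fold changes of single genes, 470 kept direction and side of the threshold, 94 lost a call, 21 gained one and 4 turned. Except where a change of the samples or genes in the fit is the setting itself, the cause was not tested.

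Same-numbered libraries deviated together between WT and *fry1-6* (correlation 0.668) and between the double mutants (0.183), but not across these sets (-0.226 to -0.156), so the numbers were not taken as pairs. The replicate block moved the genes called against WT to 997 (*fry1-6*), 3605 (*fry1-6 rdr6-11*) and 1395 (*fry1-6 rdr1-1*), and from 1082 to 555 in *fry1-6 rdr6-11* against *fry1-6*. The separate blocks were added after seeing the data, and their coding was corrected after a first run.

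Over all genes, the 1232 called in *fry1-6* against WT became 1930 with DESeq2, 557 with at least 10 counts in every library, 0 with only the genotypes compared, 2353 with separate blocks and 537 to 1078 with 1 library left out. The 4291 of *fry1-6 rdr6-11* against WT became 6781 with total counts (5813 higher, against 2484 with TMM), 1828, 8105 and 634 to 3875 with only the genotypes compared, separate blocks and 1 library left out. The 1812 of *fry1-6 rdr1-1* against WT became 3019 with DESeq2, 990 with at least 10 counts, 79 with only the genotypes compared, 4979 with separate blocks and 332 to 1773 with 1 library left out. The 1082 of *fry1-6 rdr6-11* against *fry1-6* became 2676 with DESeq2, 2007 with total counts (1514 higher, against 416), 4934 with separate blocks and 23 to 2050 with 1 library left out. The 60 of *fry1-6 rdr1-1* against *fry1-6* became 641 with DESeq2, 28 with at least 10 counts, 30 with only the genotypes compared, 0 without organelle genes, 1207 with separate blocks and 19 to 85 with 1 library left out. The 251 between the double mutants became 141 with total counts (41 higher, against 23), 1230 with DESeq2, 1121 with only the genotypes compared, 2084 with separate blocks and 0 to 488 with 1 library left out. Depth limits *SDC* most, since WT held 10 counts of it in 2 libraries.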
